A study of Homo sapiens with 20 samples.

Results

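The 8 genes described here encode enzymes and regulators that build, branch and break down glycogen. They are PGM1, UGP2, GYG1, GYS1, GBE1, PPP1R3B, PPP1R3C and PYGL, from 20162 protein-coding genes. The list was chosen with earlier results of these data known, which limits any comparison of its counts with all genes. A peak was assigned to a gene when its centre lay between 10 kb upstream of the start and 10 kb past the end of the gene record (GENCODE release 44 lifted to GRCh37). Of the 26484 peaks in the lists of all lines and conditions, 30 fell in these windows, 27 in hypoxia and 3 in normoxia. Every gene of the list had a peak in at least 1 hypoxic line, GYG1 by a single weak A549 peak. Among all protein-coding genes 48.2% had no peak in any hypoxic line.

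HIF1A is a transcription factor subunit that is stabilised when oxygen is low. It pairs with ARNT and binds DNA at the core RCGTG, where R is A or G. Its occupancy was measured by ChIP-seq in 4 established human cancer lines, HCT116 and RKO from colon carcinoma and A549 and H460 from lung carcinoma. Each line was kept in normoxia or for 24 h at 1% oxygen, with 2 ChIP libraries for each line and condition and 1 input library for each line, 20 samples in all, and the labels list no genetic change or drug for any group. The replicates were merged by the authors before peaks were called, so each line and condition gives 1 list and 1 value for a peak, without a replicate error. The signal is the normalized tag count, the tags in a peak per 10 M tags of the merged library, where 1 M is 1000000. Intervals given with it are exact 95% Poisson intervals and cover counting error only. The merged libraries held between 41.2 and 81.5 M tags, and the weakest called peaks stood at 1.94 to 2.91 normalized tags. Thresholds on the fold over input differed between lines, at 14 in H460, 13 in A549, 7 in HCT116 and 6 in RKO. The descriptions of the RKO and A549 inputs name each other's line, and all 4 inputs carry HCT116 as their source, which touches the fold over input and hence the calls, but not the tag count.

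Glycogen is a branched polymer of glucose that cells keep as a reserve. Its synthesis starts from glucose phosphate, which PGM1 (phosphoglucomutase) interconverts between its forms and UGP2 turns into UDP-glucose. Glycogenin (GYG1) primes the chain, glycogen synthase (GYS1) extends it and the branching enzyme (GBE1) adds branches. PPP1R3B and PPP1R3C bring a protein phosphatase to the particle, which activates the synthase, and PYGL, the liver form of glycogen phosphorylase, releases glucose units again. Hypoxic cells are known to accumulate glycogen, and several of these genes are known HIF1A targets.

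The sequences below surround the RCGTG cores in the 200 bp at the centre of the strongest hypoxic peak of the genes called in 2 or more hypoxic lines, except PPP1R3B, whose sequence is not printed. They are shown because each of these regions holds at least 1 core. For GBE1 both regions near the start are given, each of them called in 3 lines. Each stretch is 30 bases of GRCh37, written 5′ to 3′ on the strand on which the core reads RCGTG, with the core in capitals.
PGM1, chr1:64059437-64059466, plus strand: accctggcGCGTGtgcgACGTGcggcccgc
UGP2, chr2:64069785-64069814, plus strand: tcgtttgtgtgtACGTGgtttgcgtctcag
GYS1, chr19:49496846-49496875, plus strand: ggaaaggaGCGTGgaggACGTGtggttact
GBE1 within the gene, chr3:81810233-81810262, minus strand: tgcgccatagggtACGTGctgtggctccaa
GBE1 within the gene, chr3:81810135-81810164, minus strand: actaGCGTGggcctgtggagtaACGTGggc
GBE1 upstream, chr3:81810892-81810921, minus strand: ctacccgctccggACGTGcgtcccggcatc
GBE1 upstream, chr3:81810936-81810965, minus strand: ccaggtgccagccGCGTGagtgggcggaga
PPP1R3C, chr10:93393072-93393101, minus strand: cgctgcatgcggtACGTGcctgcccggccc
PPP1R3C, chr10:93392971-93393000, plus strand: ccccggggcgagACGTGcagagagctatct
PYGL, chr14:51411519-51411548, minus strand: cagtctgccaacgACGTGcttccctacaca
PYGL, chr14:51411633-51411662, minus strand: caacagaagtcaaACGTGccgtccttccag

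The midpoint of the PGM1 pair of cores lay 2 bp from the centre of the strongest peak, and the nearest PPP1R3C core lay 13 bp from it. At GBE1 the nearest cores were 19 bp from the centre within the gene and 12 bp from it upstream. The GYS1 pair was farther out, at 40 bp, and the single UGP2 core at 29 bp. Cores of PGM1, UGP2 and both GBE1 regions read along the gene, whereas those of GYS1 read on the strand opposite to it. None of the strongest peaks held the palindrome CACGTG.

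Binding at the glycogen genes was called in hypoxia at 7 genes in H460, 5 in A549, 5 in RKO and 4 in HCT116. In normoxia no gene was called in HCT116, and 1 gene, GYS1, was called in each of RKO, A549 and H460. The difference between conditions was 4.5 ± 1 genes (SD, n = 4 lines), with more genes called in hypoxia in 4 of 4 lines. A two-sided exact sign-flip permutation test gave p = 0.125, the smallest value that 4 lines allow. Among all 20162 protein-coding genes the share with a peak in the window was 18.4% in H460, 21.5% in A549, 28.3% in RKO and 19.9% in HCT116 under hypoxia. The corresponding normoxic shares were 3.81%, 2.76%, 6.93% and 1.29%. The windows of the 8 genes had a median length of 65.5 kb against 47.2 kb over all genes, and a longer window can hold more peaks.

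Counted within 2500 bp of the start alone, where gene length plays no part, 6 of the 8 genes were called in H460, 4 in A549, 3 in RKO and 4 in HCT116. Over all genes this held for 9.16% in H460, 7.02% in A549, 8.72% in RKO and 9.15% in HCT116. In 2 or more hypoxic lines 7 of the 8 genes had a peak in the window, against 23.3% of all genes. GYS1 and GBE1 were called in 4 lines, PGM1 and UGP2 in 3, the remaining genes but GYG1 in 2, and GYG1 in 1. These window counts add up separate sites. The H460 peaks of GYS1 lay past its end, and the RKO peaks of UGP2 and PYGL lay far inside the gene. Within 2500 bp of the start, every gene but PYGL and GYG1 had a peak in 2 or more hypoxic lines. This held for 7.75% of all genes. When peaks lying nearer to the start of another coding gene were left out, the hypoxic counts were 5 in H460, 4 in A549, 2 in RKO and 2 in HCT116. GYS1 and PGM1 then no longer had a peak in any line. The share over all genes was not computed under this filter, so these counts cannot be set against the shares above.

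**Figure D1:**
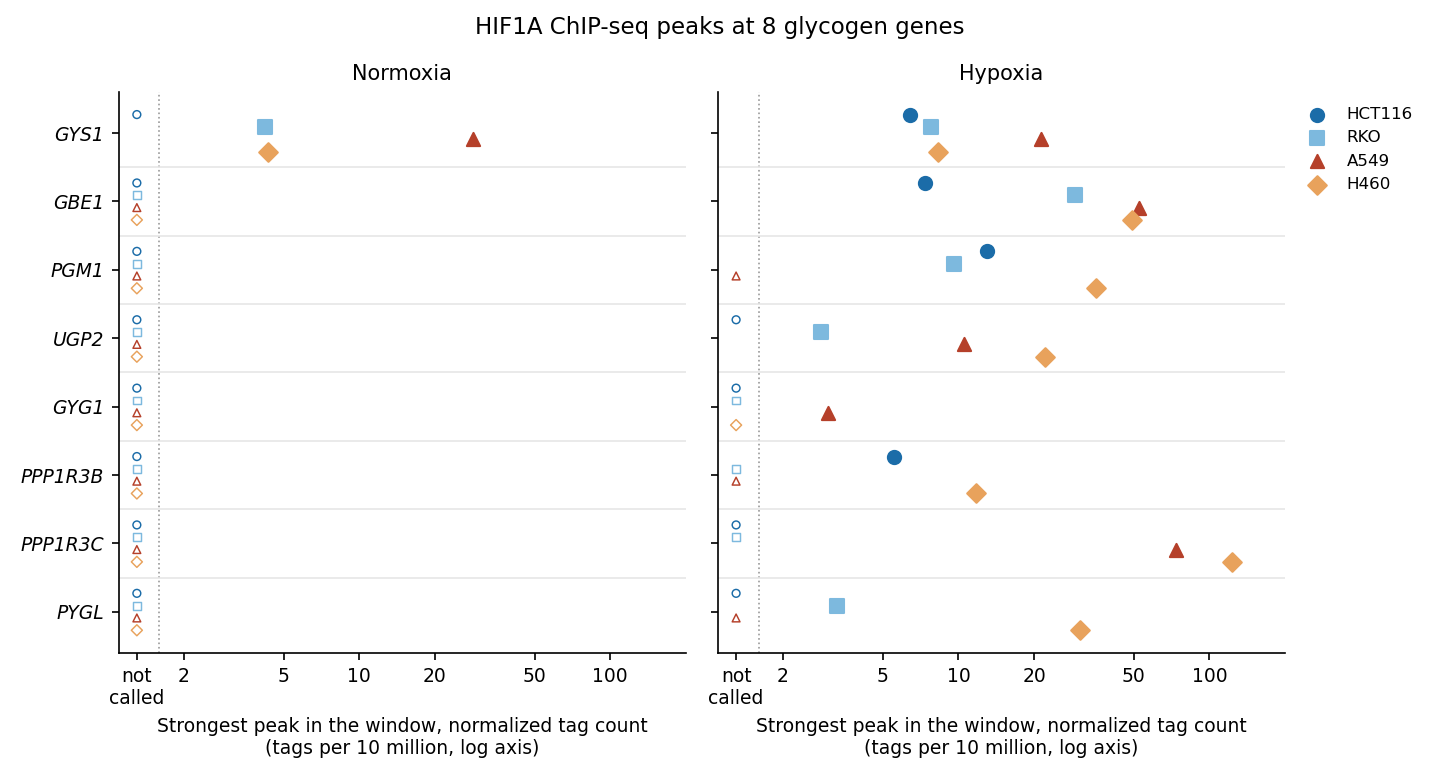
Normalized tag count (tags per 10 M, log axis) of the strongest peak in the window of each of the 8 genes, with normoxia on the left and hypoxia on the right. Filled symbols are the 4 lines, and small open symbols in the left column mark lines in which no peak was called. The normoxic panel holds values at GYS1 alone, at 4.21 in RKO, 28.4 in A549 and 4.32 in H460, whereas the hypoxic values run from 2.84 to 122.7.

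The 27 hypoxic peaks fell into 16 regions once overlapping peaks of different lines were joined. No region was called in 4 lines, 7 were called in 2 or 3, and 9 were called in a single line. Of the 27 peaks, 19 lay within 2500 bp of the start. These had a median signal of 21.3, between 5.52 and 122.7, and all 19 held an RCGTG core in the central 200 bp. The 8 peaks at other positions had a median of 3.29, between 2.84 and 8.29, and 3 of them held a core. The strong and recurrent signal in these windows was therefore found close to the gene starts. At GYS1 and PGM1 these peaks were nearer still to the starts of RUVBL2 and ITGB3BP. The peaks deep in the gene bodies were weak and occurred in 1 line each. The same split was not computed over all peaks of the lists, so it is not shown to be particular to these genes.

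**Figure D2:**
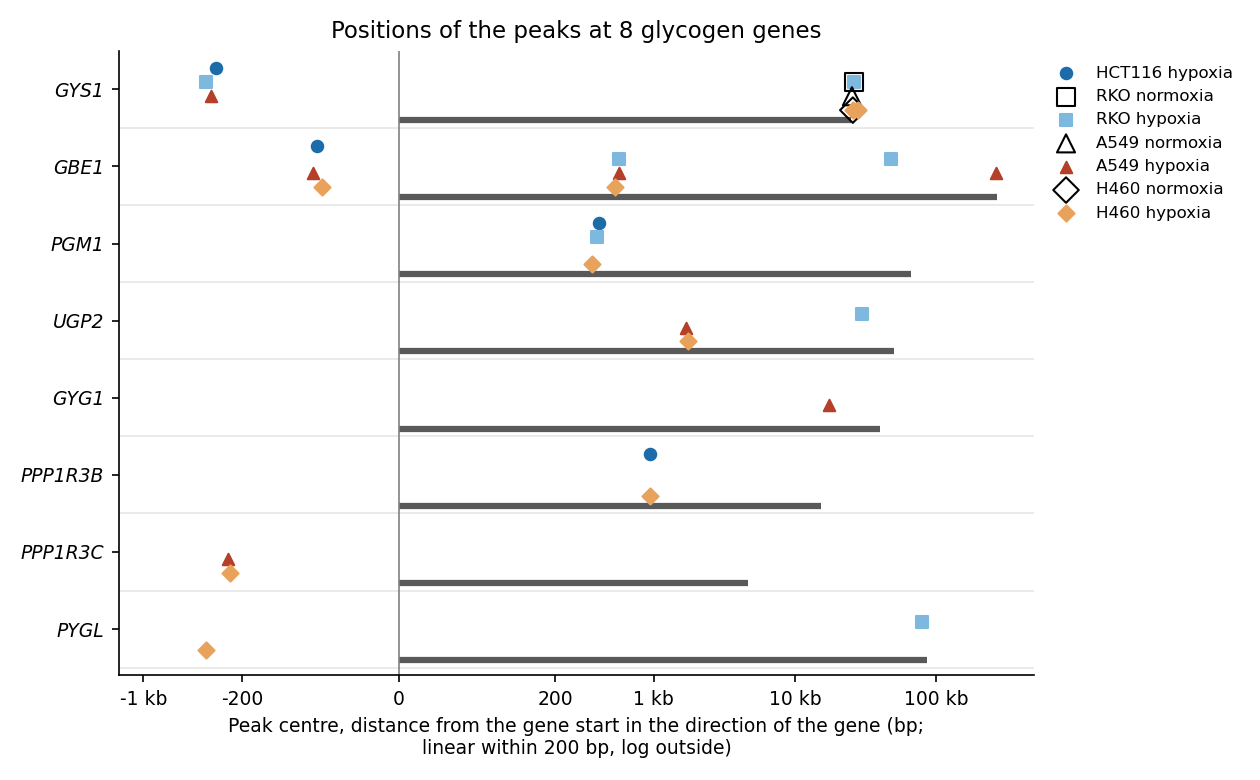
Distance of each peak centre from the gene start in the direction of the gene (bp, linear within 200 bp and logarithmic outside). Filled symbols are hypoxic peaks, black open symbols normoxic peaks, and grey bars the gene bodies. The shared peaks sit within 2500 bp of the starts, and the 3 normoxic peaks lie past the end of GYS1.

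At PGM1, the entry step from glucose phosphate, 1 region was bound in 3 lines. The signal was 35.4 in H460 (interval 30.3 to 41.0), 13 in HCT116 (10.6 to 15.7) and 9.57 in RKO (7.37 to 12.2). A549 had no call. The H460 peak (chr1:64059376-64059522) was centred 367 bp inside the gene record, in an intron and 31 bp from the start of another annotated PGM1 transcript. It was also 57 bp from the start of ITGB3BP, a centromere protein gene on the opposite strand, so the region lies between 2 divergent starts and cannot be given to one gene by position.

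UGP2, which makes the UDP-glucose used by the synthase, was bound in both lung lines 1698 to 1742 bp inside the gene, 209 and 253 bp past the start of an internal transcript. The signal was 22.2 in H460 (chr2:64069755-64069901, interval 18.3 to 26.8) and 10.5 in A549 (7.78 to 13.9). RKO had an intronic peak of 2.84 at 29750 bp, without a core, which ranked 7288 of 9171 in its list. HCT116 had no call. The lung peaks ranked 389 of 3877 in H460 and 836 of 5408 in A549. The lung peaks near the start and the weak RKO peak were thus separate sites.

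GYG1, the primer protein, had the weakest evidence of the list. A single A549 peak of 3.01 (chr3:148726608-148726748, interval 1.64 to 5.04, 14 tags) lay 17483 bp from the gene start and 10 bp from the start of a further transcript. It ranked 5121 of 5408 in A549, close to the weakest peaks called there, although it held 2 cores. GYG1 was not called in HCT116, RKO or H460.

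GYS1, glycogen synthase, had peaks at both ends. Upstream of the start, the signal was 21.3 in A549 (chr19:49496830-49496970, interval 17.3 to 25.9), 7.77 in RKO (5.81 to 10.2) and 6.38 in HCT116 (4.76 to 8.36), whereas H460 was not called there. These centres lay 333, 361 and 307 bp upstream of GYS1. They were also 81, 109 and 55 bp inside RUVBL2, a helicase gene that starts on the other strand, so this region too belongs to a divergent pair of starts.

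Past the 3′ end of GYS1 lay the only normoxic peaks of the list. In A549 the normoxic signal was 28.4 (chr19:49471084-49471228, interval 23.5 to 34.0), rank 12 of 526 in that list, at 231 bp past the gene end, and A549 had no hypoxic call there. RKO had a normoxic peak of 4.21 and a hypoxic peak of 7.18 that did not overlap it. H460 had a normoxic peak of 4.32 and hypoxic peaks of 7.68 and 8.29. The nearest start was that of FTL, the light chain of the iron store ferritin, and the H460 peak of 8.29 was centred 38 bp inside it. None of the 3 normoxic peaks held an RCGTG core. The values at this end of GYS1 are therefore given separately from those at its start.

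The H460 pair past the GYS1 end was the only pair of the list to overlap between conditions, and held 38 hypoxic and 23 normoxic tags. It overlapped by 8 bp only, so the tags come from mostly different bases and the pair need not be 1 site. Relative to library size the hypoxic signal was 1.78 times the normoxic (interval 1.03 to 3.13, two-sided exact conditional binomial test, adjusted p = 0.0366 over 45 shared peaks of H460, Benjamini-Hochberg). Of those 45 peaks 82.2% passed the same threshold. The call was lost per bp of peak width, at a ratio of 1.44 (exact binomial test, adjusted p = 0.242). Against the median ratio of the 45 shared peaks the direction turned, to 0.57 (exact binomial test, adjusted p = 0.0704). At the other peaks no ratio between conditions can be given, since a list holds no value where it makes no call. The weakest normoxic calls stood between 2.44 and 2.91.

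GBE1, the branching enzyme, was bound in hypoxia at 2 places near its start. Within the gene the signal was 52.6 in A549 (chr3:81810158-81810298, interval 46.2 to 59.6), 48.9 in H460 (43.0 to 55.5), with 29.1 in RKO (25.2 to 33.5), centred 532 to 568 bp from the start in an intron. Upstream, 98 to 109 bp before the start, it was 35.2 in H460 (chr3:81810821-81810967, interval 30.1 to 40.8), 12.7 in A549 (9.64 to 16.3) and 7.36 in HCT116 (5.62 to 9.47). HCT116 was thus called upstream only, RKO within the gene only and both lung lines at each place. No normoxic peak was called at GBE1. Weak intronic peaks were called at 265677 bp in A549 (3.01) and at 47735 bp in RKO (3.29), neither with a core.

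The balance between the GBE1 regions differed between the lung lines. In A549 the region within the gene held 245 tags and the upstream region 59, a ratio of 4.15 (exact binomial interval 3.11 to 5.62). In H460 they held 242 and 174 tags, a ratio of 1.39 (1.14 to 1.70). The comparison was picked after the values were seen and has no test, and since both regions come from one library it does not depend on scaling between lines.

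The scaffold PPP1R3C carried the strongest signal of the list. It was 122.7 in H460 (chr10:93393000-93393146, interval 113.0 to 133.0, 607 tags) and 73.4 in A549 (65.9 to 81.6, 342 tags), centred 245 and 250 bp upstream of the start. These peaks ranked 2 of 3877 in H460 and 21 of 5408 in A549. Neither colon line had a peak in the PPP1R3C window in either condition. The colon lists hold no value there, so no ratio between colon and lung is given.

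The related scaffold PPP1R3B was bound in one line of each tissue. Its signal was 11.7 in H460 (interval 8.91 to 15.2) and 5.52 in HCT116 (4.03 to 7.39), at centres 941 and 935 bp inside the gene record. Both centres fell in annotated UTR sequence, 25 and 19 bp from the start of a shorter transcript, and 1 core lay 10 bp from the H460 centre. RKO and A549 had no call. So A549 and H460, alike in having strong PPP1R3C peaks, differed at PPP1R3B in whether a peak was called.

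PYGL, the enzyme that breaks glycogen down, had a strong peak in 1 line. In H460 the signal was 30.5 (chr14:51411487-51411633, interval 25.9 to 35.8), centred 359 bp upstream of the start, with rank 224 of 3877. RKO had a peak of 3.29 at 80182 bp, without a core and nearer to the start of ABHD12B. HCT116 and A549 had no call in the PYGL window. The breakdown enzyme was thus called near its start in H460 alone.

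Within each list the median peak of the glycogen gene windows was stronger than most of the list. The median signal of the peaks was 30.5 in H460 against 6.47 over the list, 12.7 in A549 against 3.87, 7.18 in RKO against 3.29 and 6.87 in HCT116 against 3.07. The strongest 25% of the list took in 6 of 9 peaks in H460, 5 of 7 in A549, 4 of 7 in RKO and each of the 4 in HCT116. These include peaks nearest to the start of another coding gene. In RKO they were the peaks of 9.57 (ITGB3BP), 7.77 (RUVBL2) and 7.18 (FTL), which left GBE1 alone, and 7.18 is also the RKO median. In HCT116 they were 13 (ITGB3BP) and 6.38 (RUVBL2), in A549 21.3 (RUVBL2) and in H460 35.4 (ITGB3BP). GBE1 in RKO ranked 24 of 9171 and in A549 45 of 5408. As a yardstick, 233 regions were called in all 4 hypoxic lines, with a median signal of 26.9 in H460, 23 in A549, 9.72 in RKO and 11.7 in HCT116. Relative to that median, PPP1R3C stood at 4.56 in H460 and 3.19 in A549, and GBE1 within the gene at 2.99 in RKO, 2.29 in A549 and 1.82 in H460. Peaks at the GYS1 start stood below it, at 0.926 in A549, 0.799 in RKO and 0.545 in HCT116. UGP2 near the start was also below, at 0.825 in H460 and 0.457 in A549. So was PPP1R3B, at 0.435 in H460 and 0.472 in HCT116. GBE1 upstream stood at 1.31 in H460, 0.552 in A549 and 0.629 in HCT116. PGM1 stood at 1.32 in H460, 1.11 in HCT116 and 0.985 in RKO, and PYGL near its start at 1.13 in H460.

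**Figure D3:**
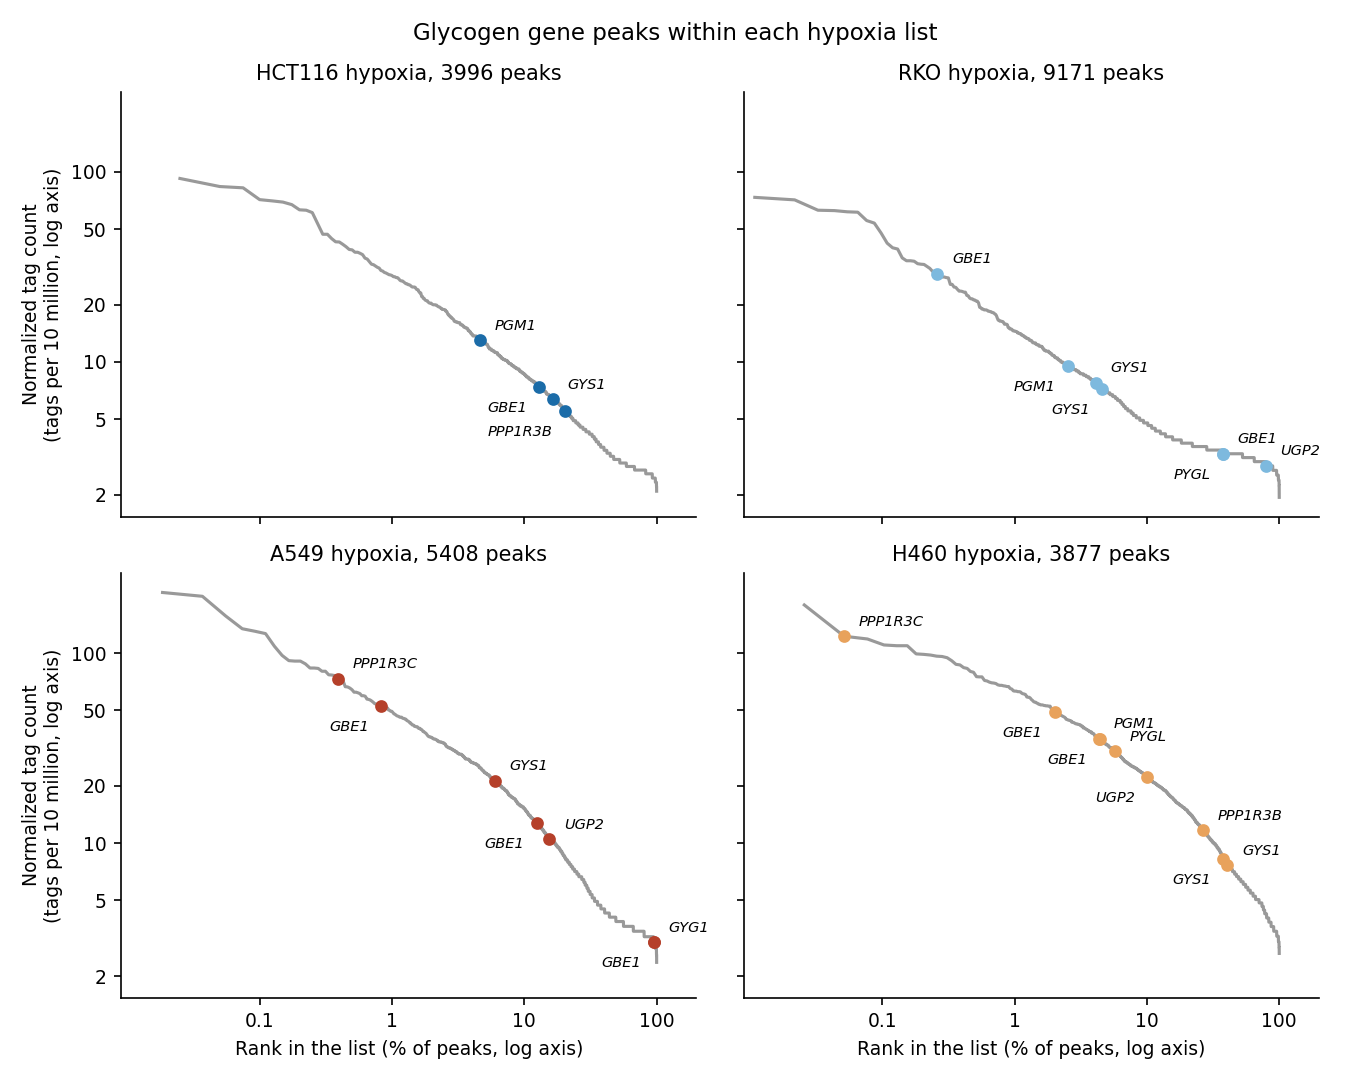
Normalized tag count (tags per 10 M, log axis) against rank in the list (percent of peaks, log axis) for each hypoxic line. The grey line is every peak of the list and the labelled points are the glycogen gene peaks. PPP1R3C is at rank 2 in H460, and GYG1 is near the bottom of the A549 list.

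Signal was compared between lines at the 7 regions called in 2 or 3 lines, which gave 15 comparisons over 6 pairs of lines. Each compared whole tags with a two-sided exact conditional binomial test against the median ratio of all regions shared by the pair, adjusted over all of those regions by Benjamini-Hochberg. The test sets 1 merged library against another and includes no spread between cultures. It called 8 of the 15, and 12 of the 15 when library totals set the expected ratio, since the shared regions as a whole had less signal in the colon lines, with median ratios of normalized tags between 0.465 and 0.520 to the lung lines. Over all shared regions it called 25.1% for HCT116 against RKO, 39.5% for HCT116 against A549, 36.8% for HCT116 against H460, 32.6% for RKO against A549, 39.1% for RKO against H460 and 43.6% for A549 against H460.

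H460 was the higher line at most of the differences. Of the 9 comparisons that included H460, 6 were called with H460 higher, 1 with H460 lower and 2 were not called. These comparisons share the same merged H460 library, and several use the same region, so they are not independent. The share of all shared regions called with H460 higher was not computed. The count is therefore not shown to be particular to these genes. The GBE1 upstream region was 2.36 times higher in H460 than in HCT116 (interval 1.75 to 3.23, exact binomial test, adjusted p = 2.45e-08). It was 2.43 times higher in H460 than in A549 (1.80 to 3.33, exact binomial test, adjusted p = 6.37e-09). UGP2 was 1.85 times higher in H460 than in A549 (1.31 to 2.65, exact binomial test, adjusted p = 0.000934), and PPP1R3C 1.46 times (1.28 to 1.68, exact binomial test, adjusted p = 1.03e-07). The 2 lung lines therefore differed by more than counting error at these genes beyond the shift common to their shared regions.

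PGM1 was 1.72 times higher in H460 than in RKO (interval 1.28 to 2.32, exact binomial test, adjusted p = 0.000756) and 1.35 times higher than in HCT116 (1.05 to 1.73, exact binomial test, adjusted p = 0.0457). The latter call was lost when regions were joined by an overlap of 50% of the shorter peak (exact binomial test, adjusted p = 0.0504). HCT116 and RKO did not differ detectably at PGM1, at a ratio of 1.25 (0.907 to 1.73, exact binomial test, adjusted p = 0.339). At the GYS1 start A549 was 1.73 times higher than HCT116 (1.23 to 2.47, exact binomial test, adjusted p = 0.00435), and its ratio to RKO was 1.35 (0.955 to 1.93, exact binomial test, adjusted p = 0.165). With library totals the GYS1 ratio of RKO to A549 was 0.366 (exact binomial test, adjusted p = 6.67e-09).

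Within GBE1 the comparison depended on the expected ratio. RKO stood at 1.28 times H460 (interval 1.06 to 1.56, exact binomial test, adjusted p = 0.0295), which was called. This direction turned, to 0.596, when library totals set the expected ratio, since the shared regions as a whole were lower in RKO than in H460 by normalized tags, with a median ratio of 0.465. RKO against A549 gave 1.12 (0.926 to 1.36, exact binomial test, adjusted p = 0.359), which also turned with library totals, to 0.554 (exact binomial test, adjusted p = 2.67e-09). A549 against H460 gave 1.23 (1.02 to 1.47, exact binomial test, adjusted p = 0.0566). PPP1R3B gave 0.952 for HCT116 against H460 (0.630 to 1.43, exact binomial test, adjusted p = 0.913), an interval that leaves room for a difference in either direction. With library totals the PPP1R3B ratio was 0.471 (exact binomial test, adjusted p = 0.000279), with H460 higher.

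**Figure D4:**
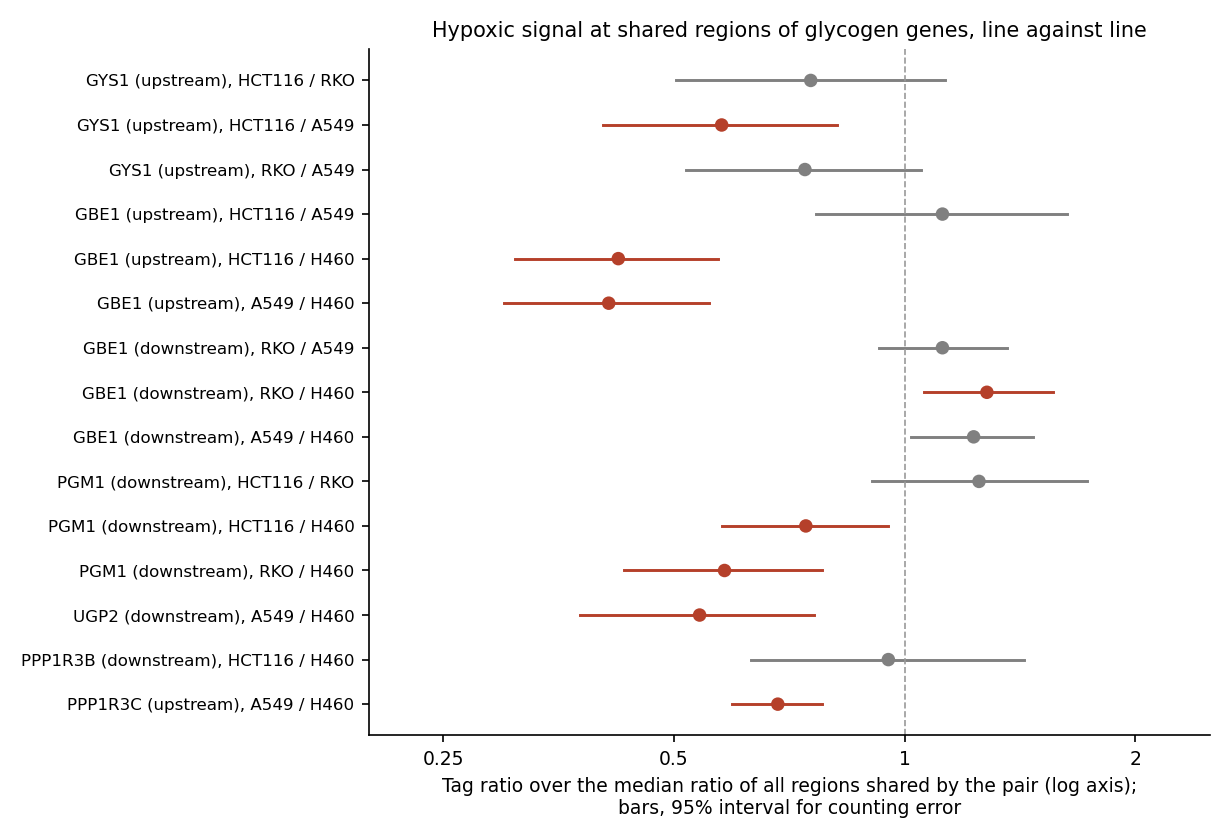
Ratio of tags between 2 hypoxic lines at each shared region, divided by the median ratio of all regions shared by the pair (log axis). Points are ratios, bars exact 95% intervals for counting error, and red marks the 8 of 15 comparisons called at an adjusted p under 0.05. Most of the red points lie left of 1 in comparisons with H460 as the second line, and GBE1 within the gene is the exception at 1.28.

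RCGTG was searched as ACGTG and GCGTG on both strands in the central 200 bp. Of the 27 hypoxic peaks 22 held at least 1 core, 9 of 9 in H460, 6 of 7 in A549, 3 of 7 in RKO and 4 of 4 in HCT116. Over all hypoxic peaks the share was 76.9% in H460, 52.4% in A549, 30.5% in RKO and 65.1% in HCT116. In windows of the same length 2000 bp to either side of the peaks it was between 19.5% and 24.2%. All 7 regions shared between lines held a core, as did 4 of the 9 called in a single line. The RKO peaks without a core were the intronic ones at GBE1, UGP2 and PYGL and the peak past the GYS1 end.

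For each gene called in 2 or more hypoxic lines, the coding genes with the most similar signal over the 8 lists were found by Euclidean distance of log2(strongest normalized tag count + 1). Genes that shared a peak with the member were left out. For PGM1 these were NIPA1 (distance 0.204), HCN3 (0.237) and DNAH2 (0.320), all without a call in A549. For PPP1R3B they were ZNF37A (0.123), THUMPD3 (0.131) and TAF15 (0.149). For UGP2 they were TRIT1 (0.341), ZFYVE26 (0.416) and ZC3H12D (0.587), and for PYGL OCRL (0.127), KCNE4 (0.347) and IFI16 (0.355). GBE1 was nearest to PPP1R3E, HOMEZ and BCL2L2 (each 1.45), which share 1 set of peaks. PPP1R3C was nearest to CDC6 and RARA (each 1.09), which also share theirs, and to ADSS1 (2.46). GYS1 had the least similar neighbours, DVL2 (2.77), VAMP2 (2.90) and TMEM107 (2.90), of which VAMP2 and TMEM107 share their peaks. The GYS1 values used here mix separate sites. The normoxic values and the H460 hypoxic value came from peaks nearest to FTL, and the other hypoxic values from the GYS1 start. These distances therefore do not describe a single site.

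The wider pathway was taken as 27 further genes, among them phosphorylase kinase, the other glycogen scaffolds and glycogen synthase kinases. In hypoxia 13 of the 27 had a peak in the window in H460, 7 in A549, 8 in RKO and 8 in HCT116. In normoxia the numbers were 2, 0, 2 and 0. Of the 27, 10 had a peak in 2 or more hypoxic lines, 9 in 1 line and 8 in none. Over all genes these shares were 23.3%, 28.5% and 48.2%. The genes without a hypoxic peak were GYS2, GYG2, PYGM, PGM3, PHKB, PHKG1, PPP1R3F and PPP1CC. The hypoxic shares were 48.1% in H460, 25.9% in A549, 29.6% in RKO and 29.6% in HCT116, against 18.4%, 21.5%, 28.3% and 19.9% over all genes. In RKO the window share was thus close to that over all genes, and A549 came next. The normoxic window share was 7.41% in H460 and in RKO, against 3.81% and 6.93% over all genes. Counted within 2500 bp of the start in hypoxia, 10 of the 27 were called in H460, 6 in A549, 6 in RKO and 6 in HCT116. Over all genes that share was 9.16% in H460, 7.02% in A549, 8.72% in RKO and 9.15% in HCT116. The closeness in RKO was thus seen in the window count only.

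PPP1R3E, another glycogen scaffold of the phosphatase, was bound in 4 lines at one place 1368 to 1399 bp inside its gene record. Its signal was 52.6 in H460, 35.2 in A549, 14.9 in RKO and 15.2 in HCT116. PPP1R3G, a further scaffold, had 12.3 in HCT116, 39.1 in A549 and 46.9 in H460, 762 to 793 bp upstream of its start, with no call in RKO. In 2 or more hypoxic lines 4 of the 7 scaffold genes, with PPP1R3B and PPP1R3C, had a peak within 2500 bp of the start. The share over all genes was 7.75%. This family was not among the planned comparisons, and its count was not tested. PPP1CB, a catalytic subunit of the phosphatase, had 31.7 in H460, 22.1 in A549, 9.72 in RKO and 15.9 in HCT116, at 148 to 170 bp.

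The remaining pathway genes called in 2 or more hypoxic lines had lower signal. PHKA2, a phosphorylase kinase subunit, was called in 4 lines between 2.84 and 10.5, but past its 3′ end and about 97440 to 97502 bp from its start. STBD1, a glycogen-binding protein, had 6.99 in HCT116 and 9.71 in H460, and NHLRC1, which encodes malin, had 9.02 in A549 and 6.47 in H460. GAA, the lysosomal glucosidase, had 6.62 in HCT116 and 3.59 in RKO. PHKG2, PHKA1 and PPP1CA were between 2.58 and 6.87 in their strongest peaks. The PHKA1 peaks were separate sites, 627 bp inside the gene in HCT116 and 482 bp upstream in A549. The strongest PPP1CA peaks were also separate, at 13962 bp in HCT116 and 19214 bp in H460, and both were nearer to the start of TBC1D10C.

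**Figure D5:**
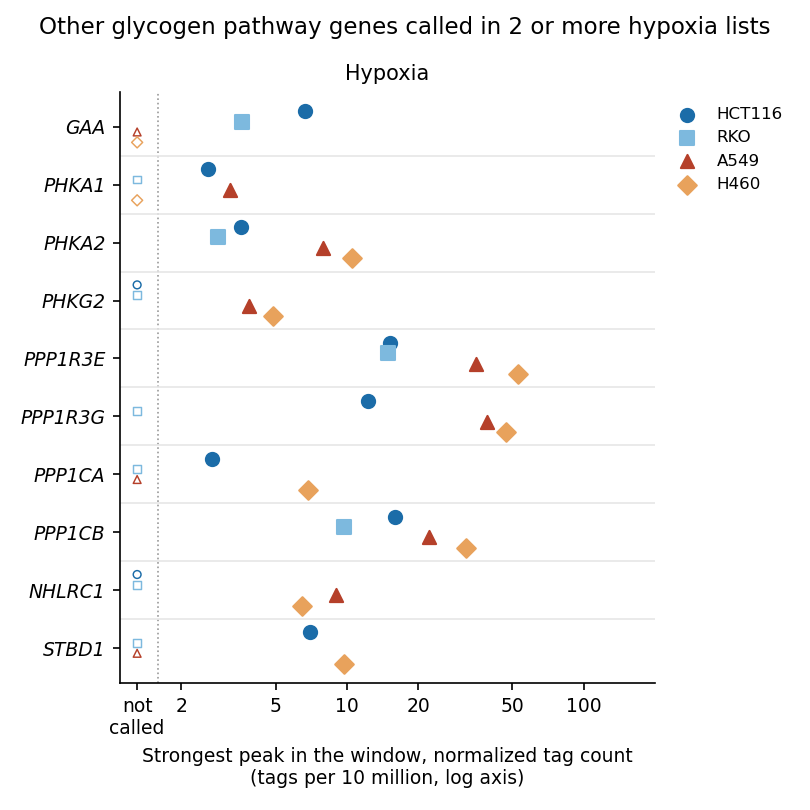
Normalized tag count (tags per 10 M, log axis) of the strongest hypoxic peak in the window of the 10 further pathway genes called in 2 or more hypoxic lines. Filled symbols are the 4 lines, and small open symbols mark lines without a call. PPP1R3E, PPP1R3G and PPP1CB reach between 31.7 and 52.6 in H460, and the other genes stay at or below 10.5.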

How the data were processed

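HIF1A ChIP-seq and input libraries of 4 lines were used. The authors aligned reads to GRCh37 (hg19) with Bowtie2 (v2.2.9), filtered them on mapping quality and marked duplicates. They merged the replicates and called peaks against input with HOMER (v4.3), requiring a fold of 3 over the surrounding 10000 bp, p of 0.001 and a false discovery rate of 0.001. The deposited normalized tag count is a signal, in tags per 10 M, where 1 M is 1000000. The deposited fold ratio over input and the local fold, used as a score, only filtered peaks in alternatives. The deposited input tags, another measure, are 0.5 where no tag was found.

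Here whole tags were recomputed from the signal and the header totals, and their sum equalled the header's tags in peaks in all 8 lists. Genes came from GENCODE, and the reference had the authors' build. Tests were run with scipy (v1.17.1) and the binomial test was tested on simulated data. The sequences were read from the GRCh37 genome. The 8 genes, the pathway list and the tests were chosen with earlier results of these data known. Every peak of the 8 genes was accounted for. The pathway list as first written held 1 more gene, which is not reported here. Pathway genes called in 2 or more hypoxic lines were named with values, and 3 similar genes per member were named. Alternatives covered windows, thresholds, overlaps, expected ratios, motif windows and leaving out a line.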

Additional observations from a re-analysis of the deposited data

Results flagged for a closer look

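Values over the 4 lines were checked for a line set apart from the rest by Dixon's ratio of gap to range, which chance alone exceeds in about 1 group of 20. Of 9 groups 3 passed the critical value at 95%. The strongest hypoxic signal in the GYS1 window was 21.3 in A549 against 8.29 in H460, 7.77 in RKO and 6.38 in HCT116, a ratio of 0.872. The H460 value there is from the peak beside FTL and the other 3 are from the GYS1 start. The number of members called in normoxia was 0 in HCT116 and 1 in each other line, a ratio of 1, where the range is a single gene and the HCT116 normoxic list held 287 peaks, the fewest of all. The number of further pathway genes called in hypoxia was 13 of 27 in H460 against 7 in A549, 8 in RKO and 8 in HCT116, a ratio of 0.833.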

How the results depend on the processing

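The hypoxic excess of called genes was 4.5 per line and stayed positive under every alternative run, between 3.25 and 4.5 with p = 0.125 (exact permutation test), and between 4 and 4.67 when each line was left out. Counts moved by over 1.5 times in some lists. Restricting peaks to 2500 bp of the start gave 3 genes in RKO, and restricting them to the gene body gave 2 in HCT116, 3 in A549 and 4 in H460. A fold over input of 14 in every list gave 2 in RKO. Leaving out peaks nearer to another coding start, which was added after seeing the data, gave 2 in HCT116 and 2 in RKO. For the gene body, the fold of 14 and the nearest start, the share over all genes was not computed. The H460 ratio past the GYS1 end was 1.44 per bp of width and 0.57 against the median of shared peaks, and with an overlap of 50% of the shorter peak no pair remained to test. Comparisons between lines gave 8 calls, 12 with library totals, 12 with totals and widths and 7 with the stricter overlap. With totals and with totals and widths, the direction turned at GBE1 upstream for HCT116 to A549 (0.581 and 0.549) and within GBE1 for RKO to A549 (0.554 and 0.485) and RKO to H460 (0.596 and 0.544). The expected ratio alone changed there. RCGTG was found in 20 of the 27 peaks in the central 100 bp and in 22 within the called peak, against 22 in 200 bp. No paired analysis was possible because the peak lists used here hold merged replicates, so neither a replicate block nor leaving out a replicate could be run, and the sign-flip test pairs the conditions by line only. At this depth a site without a call can still hold tags below the thresholds.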
